A study of Homo sapiens with 6 samples.

Results

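ATP-binding cassette (ABC) genes were read in RNA-seq libraries from Ishikawa cells, an established estrogen-responsive endometrial adenocarcinoma line. Members were all gene symbols made of ABC, a subfamily letter from A to G and a number, which gave 46 of the 26364 genes in the count table. The 6 libraries came from 3 lines, the parental Ishikawa line and 2 clones in which ETV4, an ETS-family transcription factor gene, had been knocked out. From every line there was 1 library with the vehicle, 0.1% DMSO, and 1 with 10 nM 17β-estradiol (E2). All 3 lines had been moved to hormone-depleted medium 5 days before induction. The treatment time is recorded as 8 h in the protocol and as 1 h in the sample characteristics. The parental groups therefore held 1 library each and the knockout groups 2, and each knockout library came from a single clone. Whatever separates the parental line from the clones besides ETV4 cannot be told apart from the knockout. Nothing in the labels states that the clones' cultures were repeated, so every p-value measures the spread between these libraries only.

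ABC proteins share a nucleotide-binding domain that hydrolyses ATP. In subfamilies A to D and G it powers the movement of substrates across membranes. Subfamily A members move mainly lipids, subfamily C holds conjugate exporters and channel regulators, subfamily D serves mainly peroxisomes, and subfamily G holds sterol exporters and the drug exporter ABCG2. The E and F proteins carry the ATPase domains without a membrane part and act on ribosomes and translation. In cancer cells the family is best known for ABCB1, ABCC1 and ABCG2, which pump out cytotoxic drugs.

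Library totals ran from 28037392 to 36829479 counts. The parental DMSO library stood apart in its TMM scaling factor, 0.899 against 1.00 to 1.05 in the others. It also had the fewest genes detected, 17755 against 18119 to 18658. The part of this in the members' values was not tested. The targeted gene, ETV4, had 586 and 1063 counts in the parental libraries and 71 to 122 in the 4 clone libraries, as labelled. All 6 epithelial markers examined were tested and summed to between 2077 and 3043 CPM per library, where CPM are edgeR's counts scaled to the effective library size. The 3 endothelial markers summed to at most 3.98 CPM and the 5 immune markers to at most 4.86 CPM. The 6 stromal markers summed to between 48.8 and 87.1 CPM, of which COL1A1 made 44.7 to 75.2 CPM, while DCN and PDGFRB had at most 3 counts. COL3A1 stood at 7.93 and 9.73 CPM in the parental libraries and at 1.33 to 3.33 CPM in the clones, and the part of these markers in the members' values was not tested. The estrogen-response genes PGR and GREB1 rose under E2, by 3.94 (edgeR adjusted p 0.00772) and 2.96 (edgeR adjusted p 0.00214) on the log2 scale. The receptor gene ESR1 had a log2 change of -0.50 (edgeR adjusted p 0.0966) and was lower under E2 in all 3 lines.

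Of the 46 members, 37 passed the filter on low counts and 9 did not, and 25 averaged at least 2 CPM. Among the 9, ABCB11, ABCC12 and ABCF1 had 0 counts in every library, and ABCA13 and ABCC9 had at most 1. ABCA6, ABCA9, ABCC8 and ABCC13 reached at most 6. ABCB11 is the bile salt export pump of hepatocytes, and ABCC8 and ABCC9 are the sulfonylurea receptors that regulate potassium channels, so no channel-regulator member could be tested. ABCF1, a translation factor of broad expression, needs a separate reading. It lies on chromosome 6, and 16 of the 19 protein-coding genes nearest to it that the table holds (10 on each side, RefSeq order) were also at 0 in every library. Over all protein-coding genes in the table that share was 13.1%, against 84.2% beside ABCF1. TAP1 and TAP2, family members under other symbols that load peptides on HLA class I molecules, were at 0 as well. ABCF1 is therefore given here only as listed at 0, and no statement about its expression is made.

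Levels differed widely between members. ABCF1 is left out of the ranking here. Compared per kilobase of the longest annotated transcript, ABCE1 was the most abundant of the other members, at a mean of 70.2 CPM per kilobase over the 6 libraries. ABCE1 recycles ribosomes after termination. ABCF2 followed at 35.4, the peroxisomal fatty acid transporter ABCD3 at 30.0 and ABCF3 at 25.4. ABCC1, the multidrug resistance protein that exports glutathione conjugates, led its subfamily at 19.8, and ABCA2, a sterol and lipid transporter of endolysosomes, led subfamily A at 16.2. The mitochondrial transporter ABCB10 led subfamily B at 11.4. In subfamily G the highest member, ABCG4, reached 0.477, and the drug exporter ABCG2 stood at 0.318. The best known drug pump, ABCB1, had 2.40 CPM per kilobase. With the union of all exons as the length, ABCE1 remained first at 43.9 CPM per kilobase.

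Summed over their members, the subfamilies held different parts of the family's transcripts and were read in each library. Subfamily A had the highest E2 to DMSO ratio in each line. Its sum stood at 14.9 CPM per kilobase in parental DMSO and 33.6 in parental E2, at 24.8 and 35.0 in clone 1, and at 32.1 and 47.1 in clone 2. The ratio was 2.25 for the parental line, 1.41 for clone 1 and 1.47 for clone 2. ABCA2 alone made up 51.7% of the subfamily A sum. Member by member the subfamily was divided, with 4 of 9 tested members above 0, a median fitted log2 change of -0.06 and 3 of 9 higher in the parental line. Subfamily C had ratios of 1.69, 1.22 and 1.2 in the same order. Subfamily F, in which ABCF1 enters as 0, had 1.33, 1.17 and 1.14. Subfamily B was nearly level, with ratios of 1.03, 1.04 and 1.10. Subfamily D was lower under E2 in each line, with ratios of 0.856, 0.914 and 0.947, and so was subfamily G, with 0.942, 0.667 and 0.706. ABCE1, the lone E member, stood at 0.927 times its DMSO level in the parental line and at 1.11 and 1.25 times in the clones. These sums follow their few most abundant members and were not tested.

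**Figure D1:**
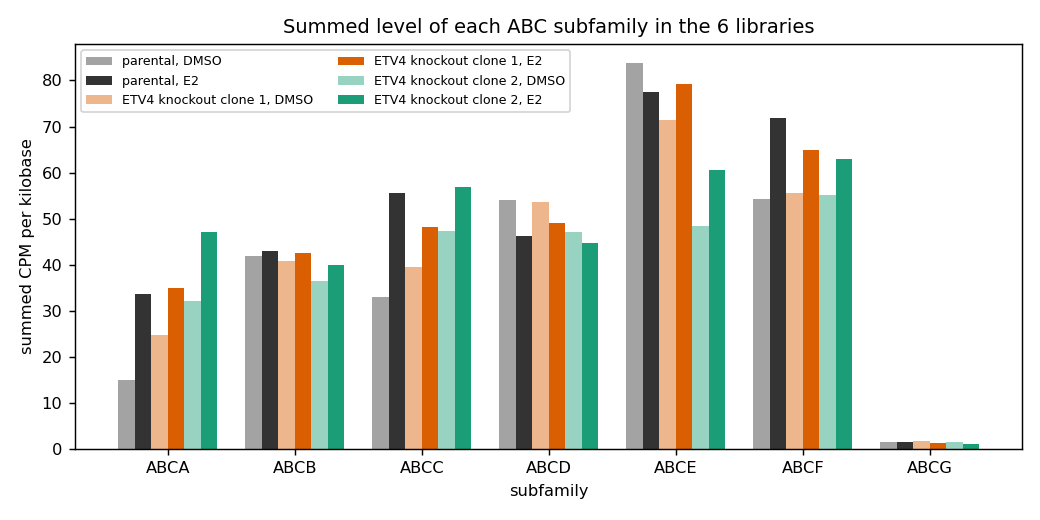
Summed level of each ABC subfamily (vertical axis, CPM per kilobase of longest transcript) in the 6 libraries; each bar is 1 library, pale for DMSO and full colour for E2. In subfamily A every E2 bar stands above the DMSO bar of its line, from 14.9 to 33.6 in the parental line, while subfamily G stays below 2 in each library.

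The first comparison asked which members responded to E2, in a model of treatment and genotype fitted to all 6 libraries. The sterol exporter ABCG1 fell and was the only member with an adjusted p below 0.05. The lipid transporter ABCA3 was higher under E2 in each line, and it passed when each line was compared with itself. Members with values higher under E2 included the drug exporter ABCC1 and the lipid transporter ABCA2, and members with lower values included the cholesterol exporter ABCA1 and ABCB5, but none of these 4 passed. In all, 1 of 37 tested members was called, 0 higher and 1 lower, against 1.13% of the 15611 genes tested, 0.903% higher and 0.224% lower. The median log2 change was 0.06 over the members and -0.02 over all tested genes. At an unadjusted p below 0.05 there were 6 members higher (16.2% against 12.0% of all tested genes) and 3 lower (8.11% against 8.38%), or 24.3% against 20.4% in either direction.

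ABCG1 hands cholesterol to high-density lipoprotein particles and is a classic target of liver X receptors. It had 47 counts in parental DMSO and 13 in parental E2, 73 and 12 in clone 1, and 43 and 16 in clone 2. Its level was 1.69 ± 0.310 CPM in DMSO and 0.435 ± 0.103 CPM in E2 (SD, n = 3 lines). All 3 E2 libraries lay below all 3 DMSO libraries. The log2 change was -1.97 (SE 0.32; edgeR adjusted p 0.0476). With line as a replicate block the change was -1.96 and edgeR's adjusted p 0.0339. The call sat near the threshold and rested on counts below 100. Without the parental DMSO library the adjusted p was 0.260 in edgeR's test, without parental E2 0.243, without clone 1 DMSO 0.200, without clone 1 E2 0.0868 and without clone 2 E2 0.175, and it was 0.242 without the whole parental line. In each of these 6 fits the change lay between -2.12 and -1.85. With genotype in the model, the fits without parental DMSO, parental E2 or the whole parental line take the E2 change from the clone libraries alone. They are therefore 1 comparison. The other fits leave 1 clone library without its pair and have no line term. In limma-voom the adjusted p was 0.0545.

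ABCA3 loads phospholipid into the lamellar bodies of lung alveolar cells and was known as a member raised by estrogen in these data before the present reading. It stood at 17.5 CPM in parental DMSO and 50.8 CPM in parental E2. In clone 1 it went from 18.6 to 40.5 CPM and in clone 2 from 36.3 to 83.4 CPM. The fold of E2 over DMSO was thus 2.89 (parental), 2.18 (clone 1) and 2.30 (clone 2), and the 3 E2 libraries lay above the 3 DMSO libraries. Clone 2 was the high library in both treatments. The log2 change was 1.29 (SE 0.34; edgeR adjusted p 0.139) without a block. With line as a replicate block, which removes the difference between clone 2 and the other lines, ABCA3 rose by 1.28 on the log2 scale (edgeR adjusted p 0.0117). Under that block 2 of 37 members passed, ABCA3 and ABCG1, or 5.41% against 2.46% of all tested genes. That was 1 member higher (2.70% against 1.72%) and 1 lower (2.70% against 0.743%). Without a block the log2 change of ABCA3 was 1.34 without the whole of clone 1 and 1.33 without clone 2. With a clone left out, each group of genotype and treatment held 1 library, so no p-value is given. ABCA3 also passed in DESeq2's Wald test (adjusted p 0.00291), and did not pass in limma-voom (0.138). In edgeR's test it passed without clone 1 E2 or clone 2 DMSO, at changes of 1.57 and 1.65. It did not pass there without clone 1 DMSO or clone 2 E2, at 1.07 and 0.99. Each of these fits leaves 1 clone library without its pair and has no line term, so the gap between the clones enters the E2 change. Nor did ABCA3 pass in edgeR's test without the parental line (adjusted p 0.528), parental DMSO (0.527) or parental E2 (0.510). With genotype in the model, those 3 fits take the E2 change from the clone libraries alone, so they are 1 comparison.

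**Figure D2:**
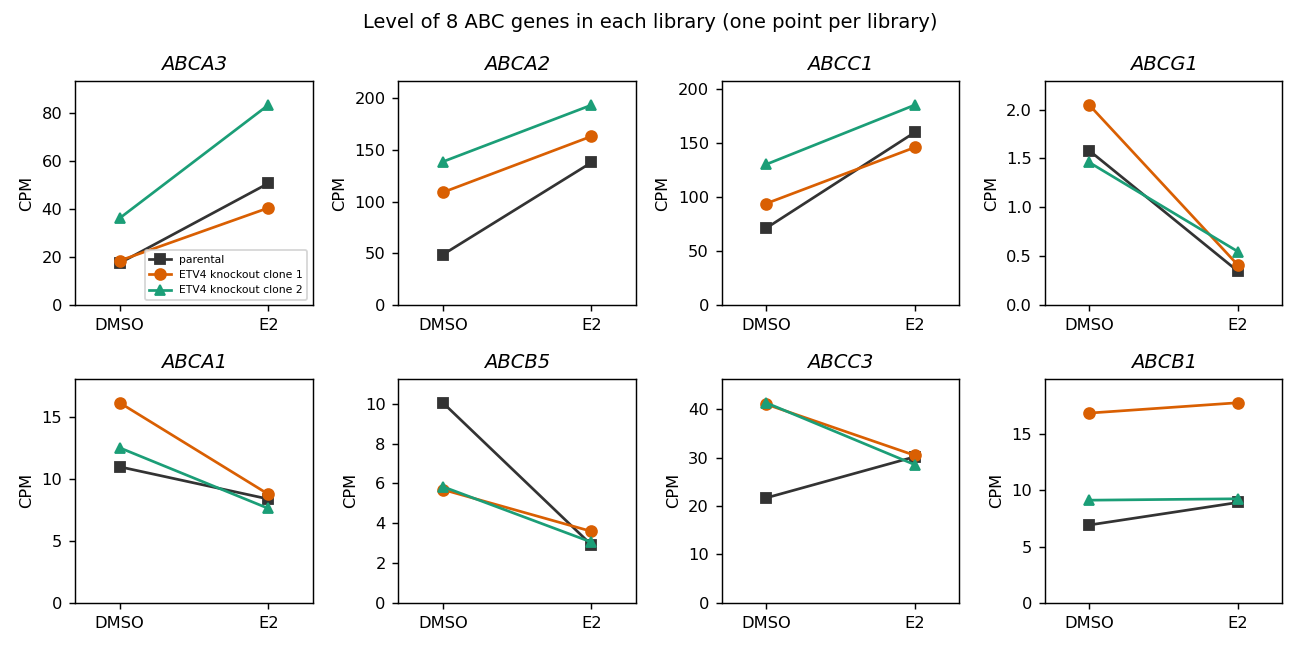
Level of 8 members (vertical axis, CPM, from 0) in DMSO and E2; each point is 1 library and each line joins the libraries of 1 cell line. ABCA3 is higher and ABCG1 lower under E2 in all 3 lines, ABCC3 goes up in the parental line and down in both clones, and ABCB1 is highest in clone 1 in both treatments.

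The other lipid transporters did not move one way. ABCA1, which exports cholesterol and phospholipid to apolipoprotein A-I, stood at 11 and 8.36 CPM in the parental line, 16.1 and 8.76 CPM in clone 1, and 12.5 and 7.61 CPM in clone 2, DMSO first. Its E2 libraries all lay below its DMSO libraries, and its log2 change was -0.67 (SE 0.18, adjusted p 0.147 in edgeR's quasi-likelihood test). ABCA2 stood at 48.9 and 138 CPM in the parental line, 109 and 163 CPM in clone 1, and 139 and 193 CPM in clone 2. Its groups overlapped only through parental E2 and clone 2 DMSO, and its log2 change was 0.84 (SE 0.23, adjusted p 0.148 in edgeR's test). ABCA7, a phospholipid transporter with a part in phagocytosis, had 12.9 and 37.5, 21.0 and 29.4, and 36.4 and 46.7 CPM in the 3 lines. It was higher under E2 in each line, by a log2 change of 0.77 (SE 0.33, adjusted p 0.251 in edgeR's test). Of the 16 members grouped as sterol and phospholipid transporters, 13 were tested, 5 had a positive and 8 a negative fitted change, and 1 was called. Their median log2 change was -0.12.

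Among the drug and conjugate exporters, 8 of 10 tested members had a positive fitted change, against 48.2% of all tested genes, with a median of 0.26, and 0 were called by edgeR. At an unadjusted p below 0.05 there were 2, ABCC1 and ABCC2, both higher, against 12.0% of all tested genes. DESeq2 called 1 of the 10, ABCC1, and 6 of the 37 members (16.2%), against 7.14% of all tested genes. ABCC1 stood at 71.1 and 159 CPM in the parental line, 93.8 and 146 CPM in clone 1, and 130 and 185 CPM in clone 2. Its E2 libraries lay above its DMSO libraries, and its log2 change was 0.76 (SE 0.20, adjusted p 0.142 in edgeR's quasi-likelihood test). ABCC2, the canalicular exporter of bilirubin conjugates, stood much lower, at 1.55 to 1.82 CPM in DMSO and 2.54 to 4.30 CPM in E2. Its groups did not overlap either, with a log2 change of 0.93 (SE 0.27, adjusted p 0.158 in edgeR's test). ABCB1 and ABCG2 had log2 changes of 0.16 (SE 0.32) and 0.32 (SE 0.32), and of 0.15 and 0.30 with line as a replicate block. Within the parental line, clone 1 and clone 2 the change was 0.36, 0.08 and 0.02 for ABCB1, and 0.12, 0.74 and -0.07 for ABCG2. Each fitted change turned slightly negative when clone 1 E2 was left out, at -0.12 and -0.01. That fit has no line term and leaves clone 1 DMSO without its pair, so the gap between the clones enters it.

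ABCB5, which marks subsets of melanoma and stem cells, stood at 10.1 CPM in parental DMSO and 2.91 CPM in parental E2. It went from 5.69 to 3.59 CPM in clone 1 and from 5.84 to 3.05 CPM in clone 2. The E2 libraries lay below the DMSO libraries, with a log2 change of -1.13 (SE 0.26, adjusted p 0.107 in edgeR's quasi-likelihood test). The retinal transporter ABCA4 was lower under E2 by nearly the same step in every line, at -0.54, -0.60 and -0.57, without passing (adjusted p 0.341 in edgeR's test).

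No member of the mitochondrial, peroxisomal or ribosomal branches passed. The 6 mitochondrial and endolysosomal members (ABCB6 to ABCB10 and the cobalamin transporter ABCD4) had fitted log2 changes from -0.22 to 0.34, with a median of 0.11 and 0 calls. Of these, ABCB6, a porphyrin transporter, had an unadjusted p below 0.05, and ABCB8 was the one whose E2 libraries all lay above its DMSO libraries, at 21.2 to 25.2 against 18.6 to 19.2 CPM. The peroxisomal members ABCD2 and ABCD3 had log2 changes of -0.95 and -0.18, of which ABCD2 had at most 11 counts in a library. ABCD3 stood between 112 and 153 CPM in the 6 libraries. ABCE1 stood between 190 and 328 CPM with a log2 change of 0.11 (SE 0.20). With line as a replicate block the change of ABCE1 was 0.12. It turned negative without a block when clone 1 E2 or clone 2 DMSO was left out, at -0.04 and -0.06. Each of those fits leaves 1 clone library without its pair. ABCF2 and ABCF3 had log2 changes of 0.19 and 0.41, and ABCF3 went from between 52.1 and 71.5 CPM in DMSO to between 78.6 and 87.7 CPM in E2 without overlap.

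Counted over the family, the E2 libraries all lay above the DMSO libraries for 5 of the 37 tested members (ABCA3, ABCB8, ABCC1, ABCC2 and ABCF3), a share of 13.5% against 13.8% of all tested genes. They all lay below for 4 members (ABCA1, ABCB5, ABCG1 and ABCC11, the last on 4 to 13 counts with 10 in each parental library), 10.8% against 10.5%. These shares are close to the background, so the family as a whole gave no result here. The change was above 0 in all 3 lines for 13 members (35.1% against 28.2%) and below 0 in all 3 for 8 (21.6% against 24.5%). A change of at least 2-fold higher in the parental line was seen for 6 members (16.2% against 11.3% of all tested genes), and in clone 1 and clone 2 for 1 member each (2.70% against 3.87% and 3.95%). That 1 member was ABCA3 in both clones. Changes of at least 2-fold lower were seen for 4 members in the parental line (10.8% against 5.02%), 3 in clone 1 (8.11% against 2.10%) and 1 in clone 2 (2.70% against 2.47%), and ABCG1 was among them in every line. The others in the parental line were ABCB5, ABCA8 (43 to 23 counts) and ABCD2 (11 to 3 counts). In clone 1 they were ABCC11 (13 to 4 counts) and ABCG4 (76 to 30 counts), so most of these folds rest on low counts. These single-library folds have no replicate check.

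**Figure D3:**
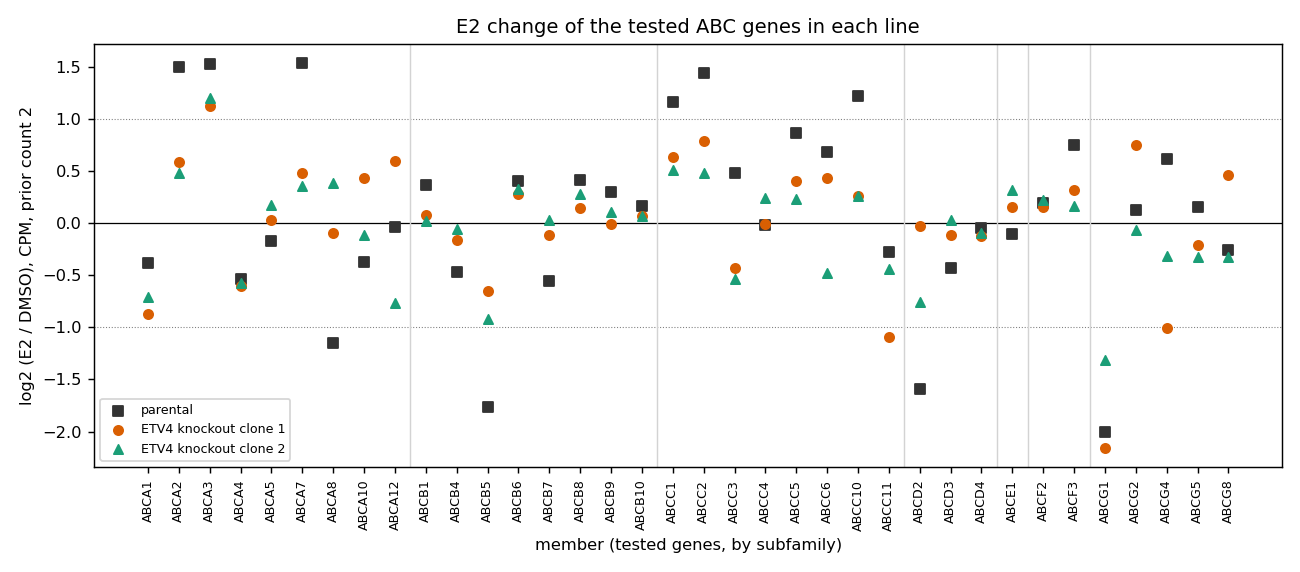
E2 change of the tested members, 1 left out, in each line (vertical axis, log2 of E2 over DMSO with a prior count of 2; dotted lines mark 2-fold); each point compares 2 libraries and grey lines divide the subfamilies. ABCA3 lies above 1 and ABCG1 below -1 in all 3 lines, and the parental squares of ABCA2, ABCA7 and ABCC10 lie far above both clones.

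Over all tested genes the E2 change rose with GC content in the parental line, slightly in clone 1 and not in clone 2. Among the 14624 tested genes with a known transcript sequence, the GC-richest tercile (above 54.0%) had a median E2 log2 change of 0.30 for the parental line, 0.06 for clone 1 and 0.02 for clone 2. The 13 members in that tercile, which include ABCA2 (63.7% GC), ABCA3 (60.4%), ABCA7 (64.7%) and ABCC1 (54.9%), had medians of 0.68, 0.28 and 0.26. The 12 members in the GC-poorest tercile had medians of -0.27, 0.01 and 0.02, against -0.24, -0.05 and 0.04 for all genes there. The 12 in the middle tercile, ABCA1 and ABCG1 among them, had medians of -0.15, -0.14 and -0.21, against 0.01, -0.01 and 0.01, so the members' medians did not follow GC content in order in the clones. After a correction for GC content and length the change of ABCA3 was 1.07 without a block and 1.05 with it (adjusted p 0.0865 and 0.00484 in edgeR's test). ABCG1, at 53.7% GC, fell by 1.99 on the log2 scale after the correction (adjusted p 0.0329 in edgeR's test). With correction and block together 8 members passed in edgeR's test (21.6% against 10.2% of all tested genes): ABCA2, ABCA3, ABCC1 and ABCC5 higher, and ABCA1, ABCA4, ABCB5 and ABCG1 lower.

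Promoter sequence was available for 35 of the 46 members, as windows of 250 bases before and 50 bases from the annotated start in RefSeq (GRCh38.p14). ABCG1 and ABCC1 were not among them. The 3 windows below belong to the lipid transporters ABCA3 and ABCA2, with values higher under E2, and ABCA1, with values lower. All are given 5′ to 3′ on the strand of the gene, which is the minus strand for each. Capitals mark GGTCA or its complement TGACC, the core unit recognised by estrogen and other nuclear receptors, and the GC box GGGCGG or its complement, bound by SP-family factors.
ABCA3, chr16:2340679-2340978: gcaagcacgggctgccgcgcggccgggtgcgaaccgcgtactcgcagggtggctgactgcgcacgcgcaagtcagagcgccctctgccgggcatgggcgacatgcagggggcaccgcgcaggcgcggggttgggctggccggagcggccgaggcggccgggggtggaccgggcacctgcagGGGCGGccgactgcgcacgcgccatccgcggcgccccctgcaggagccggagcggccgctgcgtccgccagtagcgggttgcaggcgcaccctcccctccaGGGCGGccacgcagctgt
ABCA2, chr9:137028873-137029172: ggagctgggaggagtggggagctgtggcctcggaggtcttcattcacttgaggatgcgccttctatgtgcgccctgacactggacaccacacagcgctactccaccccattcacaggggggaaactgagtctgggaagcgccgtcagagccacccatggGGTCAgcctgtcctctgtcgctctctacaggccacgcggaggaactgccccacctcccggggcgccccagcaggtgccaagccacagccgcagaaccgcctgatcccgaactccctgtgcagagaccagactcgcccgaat
ABCA1, chr9:104928106-104928405: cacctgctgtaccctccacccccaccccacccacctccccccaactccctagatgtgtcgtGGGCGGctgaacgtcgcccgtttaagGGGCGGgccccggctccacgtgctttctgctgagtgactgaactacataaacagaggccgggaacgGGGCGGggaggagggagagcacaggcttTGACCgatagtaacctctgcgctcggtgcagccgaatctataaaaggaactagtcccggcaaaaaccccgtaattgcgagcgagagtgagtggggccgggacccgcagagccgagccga
The ABCA3 window is 78.0% GC and held 2 GC boxes and no GGTCA unit. The ABCA2 window held 1 GGTCA unit, and the ABCA1 window held 1 such unit on the opposite strand, 69 to 65 bases before the start, and 3 GC boxes. Searched on both strands, GGTCA was found in 12 of the 35 member windows (34.3%) and in 37.7% of the 27305 windows of all genes. The full palindromic estrogen response element GGTCANNNTGACC, which contains that unit, was in 0 of 35 and in 0.0659% of all windows. The ETS site CCGGAA was in 7 of 35 (20.0%) and in 17.6% of all windows, and was in none of the 3 windows printed. GGGCGG was in 18 of 35 (51.4%) and in 44.6%. These matches describe letters near a start site and show no binding.

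The second comparison asked which members differed between the clones and the parental line, with treatment in the model. No member was called. The largest fitted differences were higher levels of ABCA2, ABCA12, ABCB1 and ABCB4 in the clones and lower levels of ABCG5, ABCC4, ABCB5 and ABCE1, none past the threshold in edgeR's test. ABCB5 was lower in the clones in DMSO, while in E2 both clones, at 3.59 and 3.05 CPM, lay above the parental 2.91 CPM, and its fitted difference of -0.35 became 0.18 without parental DMSO. Among all tested genes 0.327% were called, 0.147% higher and 0.179% lower, and 0 of 37 members was. With line as a random block in limma the shares were 0.295% in all, 0.122% higher and 0.173% lower, again with 0 members. At an unadjusted p below 0.05 there was 1 member, ABCA2, which was higher, or 2.70% against 6.63% of all genes in that direction. There were 0 lower against 4.82%, and the share in either direction over all genes was 11.4%. Here DESeq2's Wald test also called 1, ABCA2 (2.70% against 2.95%). The median log2 difference was 0.05 over the members and 0.01 over all tested genes.

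ABCA2 was 0.83 higher in the clones on the log2 scale (SE 0.25, adjusted p 0.313 in edgeR's quasi-likelihood test). The gap lay mostly in DMSO, where clone 1 was 1.16 and clone 2 was 1.5 above the parental library of 48.9 CPM, while in E2 they were 0.24 and 0.49 above. In DMSO it was the 1 tested member at least 2-fold higher in both clones (2.70% against 4.15% of all tested genes), and in E2 there was none (against 1.35%). At least 2-fold lower in both clones there was none in DMSO (against 1.13%) or in E2 (against 0.929%). By direction alone, both clones exceeded the parental library for 17 members in DMSO (45.9% against 42.2%) and 11 in E2 (29.7% against 35.8%). Both lay below it for 11 in DMSO (29.7% against 39.1%) and 9 in E2 (24.3% against 32.2%). ABCB1, the P-glycoprotein pump, stood at 6.92 and 8.93 CPM in the parental line, 16.9 and 17.8 CPM in clone 1, and 9.13 and 9.25 CPM in clone 2. All 4 clone libraries lay above both parental libraries, although clone 2 was only just above parental E2. Its log2 difference was 0.75 (SE 0.35, adjusted p 0.465 in edgeR's test). When the libraries of clone 2 were left out, the log2 difference was 1.14 for ABCB1 and 0.69 for ABCA2. That fit compares clone 1 with the parental line, with 1 library for each line and treatment. It measures no spread between clones, so no p-value is given.

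The clone libraries all lay above the parental libraries for 3 members (ABCA12, ABCB1 and ABCB4), 8.11% against 8.53% of all tested genes. They all lay below for 2 (ABCC4 and ABCG5), 5.41% against 7.80%. ABCA12, the keratinocyte lipid transporter, and ABCB4, the phosphatidylcholine exporter of bile, had at most 22 and 29 counts in a library, with log2 differences of 0.80 (SE 0.48) and 0.69 (SE 0.38). ABCC4, which exports cyclic nucleotides and prostaglandins, stood at 61.5 and 60.8 CPM in the parental line and at 55.2, 54.8, 36.2 and 42.9 CPM among the clone libraries. The fitted value was -0.37 (SE 0.19, edgeR adjusted p 0.490). ABCG5, a partner in plant sterol export, differed by -0.42 (SE 0.32) on at most 38 counts. ABCE1 differed by -0.32 (SE 0.21), with clone 2 at 190 CPM in DMSO against 280 in clone 1 and 328 in the parental line. By subfamily, all 9 tested A members had a positive fitted difference (51.7% of all tested genes did) and all 4 D members a negative one (48.3%). The medians were 0.30 and -0.09, with 0 calls in edgeR's test. Some of these differences were near 0, as for ABCA8 at 0.03 (SE 0.41), where both clones lay below the parental library in DMSO. Only ABCA12 among the tested A members, and no D member, had its clone libraries all on 1 side of the parental ones. ABCA3 differed by 0.46 (SE 0.36), and by -0.13 when clone 2 was left out.

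**Figure D4:**
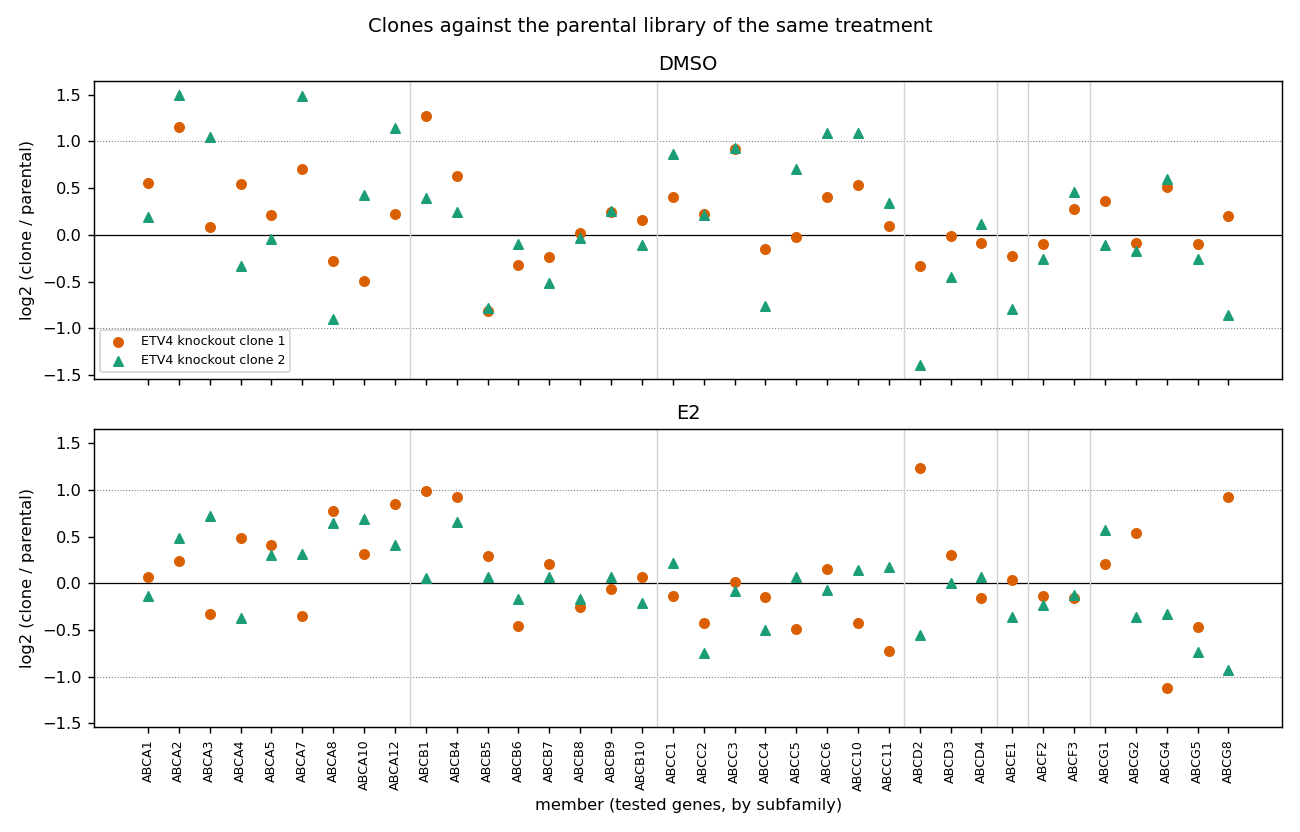
Level of the tested members, 1 left out, in the clones against the parental library of the same treatment (vertical axis, log2 ratio; dotted lines mark 2-fold); each point compares 2 libraries, DMSO above and E2 below. ABCA2 lies above 1 in both clones in DMSO and below 0.5 in E2, and ABCB1 is higher in clone 1 than in clone 2 in both treatments.

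The clones also differed from each other. The tested members with the largest mean log2 difference over the treatments, clone 2 minus clone 1, were ABCG8 at -1.45, ABCD2 at -1.43 and ABCA3 at 1.00. ABCG8 and ABCD2 had at most 12 and 11 counts in a library, so of these 3 ABCA3 alone was well measured. Clone 2 exceeded clone 1 in ABCA3 by 0.97 in DMSO and by 1.04 in E2. ABCB1 went the other way, at -0.88 and -0.94, as did ABCA4 at -0.89 and -0.86. In both treatments clone 2 was at least 1.5-fold above clone 1 for 2 members (5.41% against 4.21% of all tested genes) and at least 1.5-fold below for 4 (10.8% against 4.28%). Those 4 were ABCA4, ABCB1 and the low-count members ABCD2 and ABCG8.

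The third comparison asked whether the E2 effect differed between the clones and the parental line. Without a block no member was called, nor was any of the 15611 genes (0%), and 1190 genes had an unadjusted p below 0.05 in edgeR's test. At that unadjusted threshold there were 3 members, ABCC3 and ABCA2 among them, all with a lower E2 change in the clones (8.11% against 2.67% of all genes in that direction). In the other direction there were 0 against 4.95%, and over both directions the background was 7.62%. DESeq2 called 26 genes (0.167%) and 0 members. With line as a replicate block 7 members were called, among them ABCB5 higher and ABCA2, ABCA7, ABCC3, ABCC10 and ABCG4 lower. That share, 18.9%, stood against 15.8% of all tested genes, with 1 higher (2.70% against 8.90%) and 6 lower (16.2% against 6.92%). The blocked fit had 1 residual degree of freedom and an infinite estimated prior, so 1 common variance underlies its p-values. The parental line has 1 library per treatment, so the residual spread comes from the 2 clones alone and the parental E2 change has no replicate.

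ABCC3, an exporter of bile salts and glucuronides, had opposite signs in the parental line and the clones. It went from 21.7 to 30.2 CPM in the parental line, from 41.0 to 30.5 CPM in clone 1 and from 41.3 to 28.5 CPM in clone 2. The lines stood apart in DMSO and close together in E2. The difference in E2 change, clones minus parental, was -0.96 (SE 0.24, adjusted p 0.617) without and -0.96 (adjusted p 5.57e-04) with the block in edgeR's quasi-likelihood test. ABCG4, a sterol exporter of brain, also went up in the parental line and down in both clones, on 30 to 86 counts. Such an order, below 0 in both clones and above 0 in the parental line, held for 4 members (10.8% against 6.85% of all tested genes), and the reverse for 2 (5.41% against 6.31%).

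For ABCA2, ABCA7 and ABCC10 the direction was shared and the parental step was the larger. These parental steps start from the parental DMSO library, which had the lowest TMM factor. The E2 log2 change of ABCA7 was 1.53 in the parental line against 0.48 and 0.36 in the clones. That of ABCC10, a broad drug exporter, was 1.21 against 0.26 and 0.26, and that of ABCA2 1.49 against 0.58 and 0.48. ABCB5 was lower under E2 in each line, at -1.76 in the parental line and -0.65 and -0.92 in the clones. After the GC and length correction with the block 2 members remained past the threshold in edgeR's test (5.41% against 10.9% of all tested genes), ABCC3 at -0.59 (adjusted p 0.0106) and ABCB5 at 0.99 (0.0295). ABCA7 then stood at -0.47 (0.0606), ABCC10 at -0.56 (0.0642), ABCG4 at -0.99 (0.164) and ABCA2 at -0.29 (0.327) in the same test. For ABCA3 the difference was -0.36 (SE 0.73) without and -0.37 with the block (adjusted p 0.888 and 0.254 in edgeR's test), and with the correction it was 0.21 without the block and 0.18 with it. Over the family the parental line had the largest absolute E2 change of the 3 lines for 20 of 37 members (54.1% against 64.8% of all tested genes) and the smallest for 8 (21.6% against 15.8%).

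Genes that work beside these transporters were read from lists drawn from general knowledge. In the main fits 0 members of each list were called, in either direction and in either the E2 or the knockout comparison. Of 15 genes of sterol control 14 were tested, with a median E2 log2 change of -0.08. The liver X receptor genes NR1H2 and NR1H3, which drive ABCA1 and ABCG1, had log2 changes of -0.06 and -0.28. Of 10 surfactant and lamellar body genes 4 were tested (median -0.14). The surfactant protein genes SFTPB and SFTPC had at most 9 and 3 counts. The 4 tested genes of that list differed widely in level. SLC34A2 stood at 359 to 573 CPM, LPCAT1 at 160 to 184, LAMP3 at 3.39 to 6.56 and SFTPD at 0.308 to 0.882. The 5 tested of 6 xenobiotic receptor genes had a median of -0.04, the 9 peroxisome partners -0.10 and the 7 iron-sulfur and heme genes -0.10. The 7 tested ribosome rescue genes had a median of 0.11, the 2 potassium channel partners 0.21 and the 3 tested peptide loading genes -0.17. CFTR, a family member under another symbol, had at most 2 counts.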

How the data were processed

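RNA-seq was measured in 6 poly(A)-selected Ishikawa libraries. The deposited raw table holds whole-number counts per gene symbol and library, per the file headers. HISAT2, SAMtools, Subread and DESeq2, and the build hg19, are named in the submitters' processing notes. The annotation, the use of strand and the handling of multiply mapped reads are not given in the sources used here, so members with near copies or antisense genes (ABCC6, ABCC5, ABCA9) are uncertain. Columns written DMOS and ER were read as DMSO and E2. The deposited normalized table was not used.

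The members, gene lists and tests were chosen with earlier results of these data known. Genes were kept by filterByExpr (15611 of 26364), scaled by TMM and tested with edgeR 4.0.16 in R 4.3.3 by the quasi-likelihood test on genotype and treatment, or their interaction, with Benjamini-Hochberg adjustment over all tested genes at 0.05. SE is the coefficient over the square root of F. Log2 ratios of single libraries used a prior count of 2. Lengths and GC content came from the longest GENCODE v29 transcript per symbol, found for 93.7% of tested genes. Scripts were tested on simulated data. Named members were those called, 4 per direction and comparison with the largest change, the highest per subfamily, ABCA3 and the textbook members. ABCC3 was named in the interaction after its values were seen. Other members, ABCA4, ABCB6, ABCB8 and ABCF3 among them, were named outside these rules for their values. Results for 1 member are not reported here by name, and it is left out of the plots by gene, while counts over the family include it.

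The lines pair the libraries: across tested genes the clones' DMSO and E2 deviations from their group means had a correlation of 0.626. The replicate block was line, fixed, or random in limma 3.58.1 for the knockout effect (consensus correlation 0.113). Other alternatives were DESeq2 1.42.0, limma-voom, median-ratio scaling, no filter, at least 10 counts in every library, a lowess correction for GC content and length, and leaving out each line or library.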

Additional observations from a re-analysis of the deposited data

Results flagged for a closer look

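For 7 members the interaction of E2 and genotype passed the threshold in edgeR's test with line as a replicate block, and 6 are given here by name. That fit called 15.8% of all tested genes, against 18.9% of the members. It had 1 residual degree of freedom, from the 2 clones alone, and the parental E2 change it compares with has no replicate. The difference in log2 E2 change, clones minus parental, was -0.97 for ABCA2, -1.12 for ABCA7, 0.99 for ABCB5, -0.96 for ABCC3, -0.96 for ABCC10 and -1.30 for ABCG4. Without the block 0 of these 6 passed, as did 0 of the 15611 genes, and 2 (ABCA2 and ABCC3) had an unadjusted p below 0.05 in edgeR's test. ABCC3 and ABCG4 went up in the parental line (0.48 and 0.61) and down in clone 1 (-0.43 and -1.01) and clone 2 (-0.53 and -0.31). With the GC and length correction and the block, ABCC3 and ABCB5 passed and the other 4 did not.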

How the results depend on the processing

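The number of genes called for the E2 effect was 176, and moved to 1115 in DESeq2, 384 with the replicate block, 372 with the GC and length correction and 1586 with both; leaving out a line or library gave 40 to 3353. Members called went from 1 to 6 in DESeq2, 0 in limma-voom, 2 with the replicate block and 8 with block and correction, and 0 to 11 on leaving out a line or library. The knockout effect had 51 genes, against 460 in DESeq2, 116 with the correction and 1 to 996 on leaving out, with 0 members against 1 in DESeq2 and 0 to 2. The interaction had 0 genes, against 26 in DESeq2, 2470 with the replicate block, 1700 with block and correction, and 0 to 38 on leaving out, with 0 members against 7 with the block and 2 with block and correction. The highest E2 and knockout counts on leaving out came without clone 2. In that fit each group of genotype and treatment held 1 library, so no spread between clones was measured. Leaving out lines or libraries turned the sign of several estimates, given here with their range over all alternatives. These were the E2 changes of ABCB1 (-0.12 to 0.47), ABCE1 (-0.063 to 0.24, and -0.04 without clone 1 E2) and ABCG2 (-0.010 to 0.53). Knockout differences of ABCA3 (-0.13 to 0.87) and ABCB5 (-0.80 to 0.18) turned as well. So did the interactions of ABCA3 (-0.97 to 0.21, and 0.06 without clone 1 E2) and ABCD2 (-0.24 to 2.63). Where 1 clone library was left out, the fit had no line term and the other library of that clone lost its pair. The gap between the clones then enters the estimate. Other causes were not tested. Leaving out a line or parental library for the interaction, and the correction with block for the knockout, were not run. The block changed no other call of a member. Median-ratio scaling changed no call of a member. With the correction the interaction of ABCA3 turned from -0.36 to 0.21, and to 0.18 with the block too.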

Other observations

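Members that are neighbours in the RefSeq gene order stood at very different levels. In the run of 5 subfamily A genes on chromosome 17, ABCA5 stood between 16.6 and 22.1 CPM, while ABCA8 reached at most 1.45, ABCA10 0.747, ABCA9 0.205 and ABCA6 0.171 CPM. On chromosome 7 ABCB1 stood between 6.92 and 17.8 CPM beside ABCB4 between 0.347 and 0.813 CPM. On chromosome 16 ABCC1 stood between 71.1 and 185 CPM beside ABCC6 between 0.874 and 1.93 CPM. ABCC6 has near-identical pseudogene copies, so its counts are uncertain.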
